A study of Mus musculus with 2 samples.

Results

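The genes examined were the TNF ligand and receptor superfamily, taken from the RefSeq protein-coding genes of GRCm38 (chromosomes X and 1 to 19) as those with symbols starting Tnfsf or Tnfrsf, together with Tnf, Lta, Ltb, Ltbr, Fas, Fasl, Cd27, Cd70 and Cd40lg. Tnfrsf13b, Tnfrsf13c and Tnfrsf17 were left out by that rule, which used no measured value, though the genes were chosen with earlier results of these data known. It took 38 of 21631 genes, 18 coding for ligands and 20 for receptors. Binding of the transcription factor IRF4 was measured by ChIP-seq in CH12.LX, an immortalized mouse B-cell lymphoma line of strain B10.H-2aH-4bp/Wts, in 2 biological replicates that formed 1 group with no treatment. The cells are 1 line, the labels say nothing of separate cultures, and a control experiment named there as possible was not used here. No expression was measured, so the labelled cell type was not checked against the levels of marker genes.

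TNF superfamily ligands are mostly trimeric proteins at the cell surface or shed from it, and their receptors either recruit TRAF adaptors, which lead to NF-kB and kinase signalling, or carry death domains that can start apoptosis. In B cells the family carries signals for survival, costimulation and germinal centre reactions. IRF4 is a lymphoid member of the interferon regulatory factors, binds DNA weakly alone and often sits beside partners, ETS factors such as PU.1 at composite ETS-IRF elements and BATF-JUN at AP-1-IRF elements, or as a dimer at interferon-stimulated response elements.

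IRF4 summits lay in the loci of most of these genes, where a locus is the gene body and 10 kb on either side. In the optimal list of reproducible peaks, 30 of the 38 genes had at least 1 summit, against 62.3% of all protein-coding genes. They held 107 distinct summits, or 0.243% of the 44058 in the list. The strongest stood at Tnfrsf1b, Cd70, Tnfrsf8 and Tnfsf9, which code for the second TNF receptor, the ligand of CD27, CD30 and the ligand of CD137. No optimal summit was found at Tnfsf4, Tnfsf11, Cd40lg, Ltbr, Tnfrsf10b, Tnfrsf11b, Tnfrsf21 or Tnfrsf23. Because there is 1 group and genes are not replicates, counts are given beside those of all genes and no test was made.

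The sequences under the summits are shown first, for the peaks near a start that held an element to which IRF4 is known to bind and for the promoter of Tnfrsf8, which had the third highest signal. Windows of the mm9 peak list were read from the mm9 genome, and promoters from RefSeq on GRCm38. Capitals mark matches, on either strand, to any of 7 motifs. The ETS-IRF element was read as GGAA, any 2 bases and an IRF part of G with a run of 3 A after it. The response element was read as that IRF part on either side of any 2 bases. Of the joint AP-1 and IRF elements, one has the IRF part directly before the AP-1 site and one has its complement followed by any 4 bases and the AP-1 site. The others were the AP-1 site alone (TGANTCA), the ETS word (GGAAGTGA) and the NF-kB site. The first 4 are called composite elements here, and motifs may overlap, since the AP-1 site is part of the last pair of composites. Each of the first 3 sequences is a stretch of 30 bases around the element. The summit of the one near Cd27 lies in a UTR and inside the spans of Tapbpl and Vamp1. Which of these genes has the UTR was not told apart.
Tnfrsf1b start (mm9 chr4:144836764-144836793, + strand): gctggtgactGAAAGCGAAAccctcaggcc
Tnfsf13b start (mm9 chr8:10006607-10006636, + strand): tacaaaaactGAAAGTGAAAtgcggaaggc
Tapbpl and Vamp1 UTR near Cd27 (mm9 chr6:125181733-125181762, + strand): tctcttatcgTTTCTCTTTCACTTTCactt
Tnfrsf1b promoter (GRCm38 chr4:145246871-145246970, - strand): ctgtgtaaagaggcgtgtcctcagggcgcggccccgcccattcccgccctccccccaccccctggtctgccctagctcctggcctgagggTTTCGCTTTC
Tnfrsf8 promoter (GRCm38 chr4:145315255-145315354, - strand): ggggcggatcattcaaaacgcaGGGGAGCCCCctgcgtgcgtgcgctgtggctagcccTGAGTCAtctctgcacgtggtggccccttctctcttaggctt

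At the start of Tnfrsf1b the mm9 stretch and the GRCm38 promoter show the same response element, on opposite strands, and the GRCm38 summit lay 10 bp past the start. The Tnfrsf8 promoter holds an NF-kB site and an AP-1 site, and its summit lay 133 bp upstream of the start, beside the AP-1 site. Among 33 RefSeq promoters of 29 of these genes (250 bases before to 50 after a start), the response element occurred in 3, those of Tnfrsf1b, Tnfsf13b and Tnfrsf14, against 3.38% of 21045 promoters. The AP-1 site occurred in 7, of which a pair are overlapping promoters of Tnfsf13b that hold the same site, against 7.04%, and the NF-kB site in 3, those of Ltb, Tnfrsf8 and Tnfrsf9, against 4.86%. An optimal summit lay in 2 of the 3 promoters with the response element, not in that of Tnfrsf14. For the AP-1 site it was 5 of the 7, and for the NF-kB site 2 of the 3, without Ltb. With or without a motif, a summit lay in 10 of the 33 promoters, against 19.9% of all 21045. Over all promoters it lay in 168 of 711 with the response element and 200 of 1481 with the AP-1 site. With the NF-kB site it lay in 250 of 1022. A match describes the letters and is not a measured site.

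Away from starts, the remaining windows with a composite element are shown whole, 50 bases either side of the summit, with that of the strongest mm9 peak at these genes, downstream of Cd70.
Tnfsf8 far upstream (mm9 chr4:63531867-63531967, + strand): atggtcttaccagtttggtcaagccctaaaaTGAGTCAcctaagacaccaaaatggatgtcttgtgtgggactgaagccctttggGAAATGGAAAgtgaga
Tnfsf8 upstream (mm9 chr4:63529404-63529504, + strand): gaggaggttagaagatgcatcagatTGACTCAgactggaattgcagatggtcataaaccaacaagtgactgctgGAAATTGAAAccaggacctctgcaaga
Tnfrsf1a intron (mm9 chr6:125311003-125311103, + strand): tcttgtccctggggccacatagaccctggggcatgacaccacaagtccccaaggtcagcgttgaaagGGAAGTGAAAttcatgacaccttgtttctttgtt
Tnfrsf1b intron (mm9 chr4:144823756-144823856, + strand): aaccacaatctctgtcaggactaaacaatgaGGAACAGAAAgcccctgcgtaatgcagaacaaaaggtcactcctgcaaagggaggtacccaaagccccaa
Tnfrsf8 intron (mm9 chr4:144900895-144900995, + strand): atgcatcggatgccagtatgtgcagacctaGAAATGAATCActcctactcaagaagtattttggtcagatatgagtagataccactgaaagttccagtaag
Lta upstream (mm9 chr17:35351689-35351789, + strand): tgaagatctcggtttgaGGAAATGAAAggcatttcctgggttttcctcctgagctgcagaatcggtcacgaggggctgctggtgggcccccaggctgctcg
Cd70 downstream (mm9 chr17:57279292-57279392, + strand): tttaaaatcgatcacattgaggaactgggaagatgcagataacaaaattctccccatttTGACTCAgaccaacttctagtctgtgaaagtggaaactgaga

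Both upstream windows of Tnfsf8 hold a response element and an AP-1 site apart from each other, the Tnfrsf1a window holds an ETS-IRF element that overlaps the ETS word, and the Tnfrsf8 intron holds the IRF part joined to an AP-1 site. The Cd70 window holds an AP-1 site and no composite element. In all, 9 of 70 mm9 summits at these genes held a composite element, which is 12.9% (95% Wilson interval 6.91 to 22.7, covering counting error over peaks only) against 16.0% of 26837 peaks. The ETS-IRF element was found in 3 (4.29%, against 8.64%) and the response element in 5 (7.14%, against 5.81%). The AP-1 site was found in 12 (17.1%, against 16.0%), and the gapped element in 0 of 70 (Wilson interval 0 to 5.20%, against 1.13%). The gapped element is so rare in all peaks that none in 70 says little of these genes. The NF-kB site was found in 8 windows (11.4%, interval 5.91 to 21.0, against 5.69%), and 41 windows held none of the motifs. The NF-kB interval lay just above the share in all peaks, with 7 motifs searched and no test made, and it covered that share when the window was 25 bp either side. Of the 70 summits, 36 were intergenic, 27 in introns and 7 in UTRs by the mm9 annotation.

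Signal values compare peaks within 1 list. They are the authors' own, on a scale that is not stated, and the depth is unknown. Over all genes with a summit the median of the strongest signal was 58.3, and over the 30 genes of the family it was 94.5, which describes only those that had a summit. A strongest signal of 100 or more was found at 15 of 38 genes, against 15.3% of all genes. Among loci under 40 kb it was found at 9 of 22, against 9.25%, and among loci of 40 to 80 kb at 5 of 13, against 16.7%. 5 or more summits were found at 11 of 38, against 12.5%, which was 6 of 22 in loci under 40 kb (6.10% of all such genes) and 5 of 13 in loci of 40 to 80 kb (12.7%). Ltb, Tnf and Lta, neighbours that share summits, are all among those 6. Lta and Tnf also had the same strongest summit, of 127.7. The counts are therefore not independent. Any summit was found at 19 of 22 genes of the shorter class (52.2%) and at 9 of 13 of the longer (72.0%). The 3 genes with loci of 80 kb and over gave 2 with a summit (77.2%) and 1 with a signal of 100 or more (30.4%), and none had 5 or more summits.

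**Figure D1:**
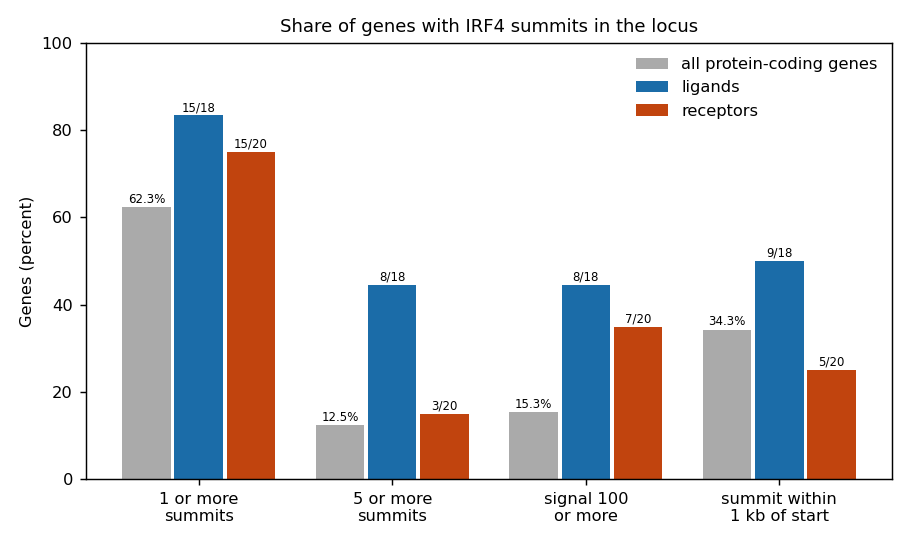
Bars give the percent of genes in each class (all 21631 protein-coding genes, 18 ligands, 20 receptors) that had 1 or more optimal summits, 5 or more, a signal of 100 or more, or a summit within 1 kb of a start (20880 genes with a known start for the grey bar). Counts stand over the coloured bars; ligands exceed all genes in each measure, and receptors lie below them for summits near a start (5 of 20, against 34.3%).

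Ligands had a summit at 15 of 18 genes and receptors at 15 of 20. 5 or more summits were found at 8 ligands and 3 receptors, and the median of the strongest signal was 128 and 87.3. Neighbouring ligand genes share summits, as do some neighbouring receptor genes, so these are not independent counts: 12 of the 107 summits lay in the loci of more than 1 member. No test of the difference between ligands and receptors was made.

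**Figure D2:**
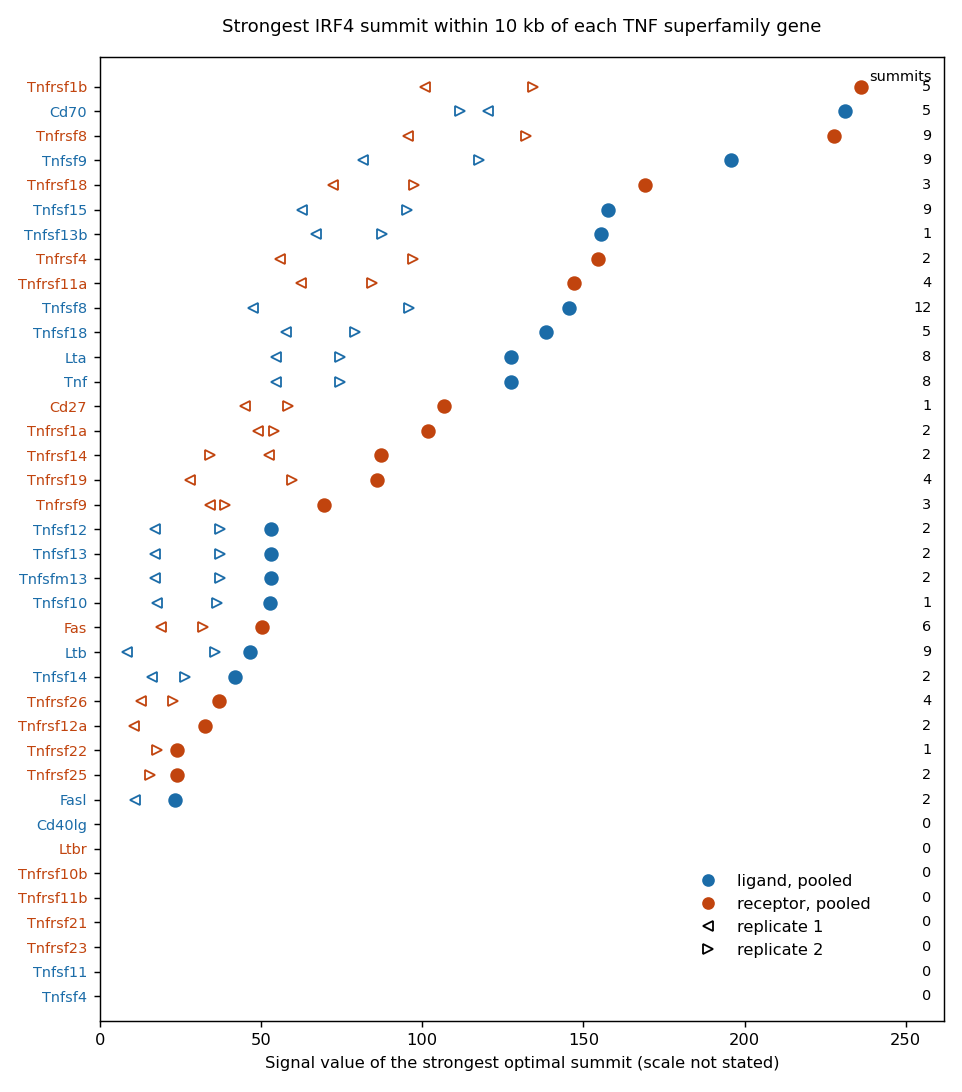
Each row is a gene, with the signal value of its strongest optimal summit (circle, pooled replicates) and of the matched summit in replicate 1 (left triangle) and replicate 2 (right triangle), and its number of summits at the right. Blue marks ligands and orange receptors; values run from 236.1 at Tnfrsf1b to 23.4 at Fasl, and 8 genes have none.

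Among the ligands, Cd70, which costimulates lymphocytes through CD27, had the highest signal, 231.1, at 9860 bp past its start and beyond its end. The matched summit had 120.4 in replicate 1 and 111.7 in replicate 2. A further summit 24 bp past the start had 74.5, with 26.1 and 47.3 in the replicates. So the downstream summit was the stronger in both replicates.

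Tnfsf9, the ligand of the costimulatory receptor CD137, held 9 summits, 4 of them of 100 or more. Its strongest, 195.7, lay 7805 bp past the start, with 81.7 in replicate 1 and 117.5 in replicate 2. At its promoter, a summit 769 bp upstream had 113.2 (42.0 and 71.1), and one 45 bp past the start had 49.6, matched in replicate 2 alone at 38.6. The strongest signal was again away from the start. Tnfsf14, or LIGHT, the third ligand of this group, had weaker summits, of 41.8 downstream and 41.7 at 206 bp upstream (24.8 and 17.7).

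Tnfsf8, the ligand of CD30, had the most summits, 12. Its strongest lay in the gene body, 18846 bp past the start, at 145.6, with 47.4 in replicate 1 and 95.9 in replicate 2. The one 86 bp from its start had 30.2, matched in replicate 2 alone at 23.1. Its neighbour Tnfsf15, or TL1A, a ligand of DR3, had 9 summits. The strongest, 157.7, lay 3300 bp upstream, with 62.8 and 95.2 in the replicates. The summit 465 bp upstream had 21.1 and was matched in replicate 2 alone, at 17.0.

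Tnfsf13b codes for BAFF, which B cells need to survive, and had a single summit. It lay 29 bp upstream of a RefSeq start with a signal of 155.4, with 67.2 in replicate 1 and 87.7 in replicate 2. Its response element is printed above. Tnfsf10, or TRAIL, a death ligand, also had a single summit, 70 bp upstream of its start, with 52.9 (17.8 and 36.4). These were the ligands whose only summit was at a start. Tnfsf18, the ligand of GITR, had 5, the strongest in its body at 138.5.

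Tnf, Lta and Ltb, the inflammatory cytokine and the lymphotoxins that shape lymphoid organs, lie side by side and shared most of their summits. The strongest, 127.7, was in the loci of Lta and Tnf but not of Ltb and lay 4987 bp upstream of Lta, with 54.6 in replicate 1 and 74.5 in replicate 2. The summit 100 bp upstream of Tnf had 39.8 (22.5 and 18.5). At Lta, a summit 69 bp past the start had 20.8, matched in replicate 2 alone at 14.8, and one 235 bp upstream had 7.77, matched in replicate 1 alone at 12.5. Starts in this group thus carried weaker signal than the upstream summit. The Ltb summit of highest signal, 46.7, lay 314 bp from the start of the neighbouring gene Lst1, with 8.37 and 35.8.

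The remaining ligands had few summits or none. Tnfsf12 (TWEAK), Tnfsf13 (APRIL) and Tnfsfm13, whose gene spans both, shared 2 summits, and the stronger, 53.0, lay 46 bp from the start of Senp3, so it cannot be assigned to them. Fasl, the ligand of Fas, had 2 weak summits, of 23.4 and 10.7, matched in replicate 1 alone.

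Among the receptors, Tnfrsf1b, which binds TNF without a death domain, had the highest signal, 236.1, with 100.8 in replicate 1 and 134.3 in replicate 2, and it lay at the start. Tnfrsf8, or CD30, came close, with 227.8 at 133 bp upstream (95.7 and 132.1). It held 9 summits, and one in the gene body 14667 bp past the start had 193.5 (73.1 and 118.4). Both receptors thus had their strongest summit at the start. Summits of 100 or more within 1 kb of an own start were found at 4 of the 38 genes, Tnfrsf1b, Tnfrsf8, Tnfsf13b and Tnfsf9, against 2.11% of genes.

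The costimulatory receptors Tnfrsf18 (GITR) and Tnfrsf4 (OX40) are neighbours. Tnfrsf18 had 169.1 at 5779 bp past its start, with 72.4 and 97.5 in the replicates. Tnfrsf4 had 154.6 at 5229 bp upstream, within the gene Sdf4, with 56.0 and 97.2. Neither had a summit within 1 kb of its start. Tnfrsf11a, or RANK, the receptor of the osteoclast and lymph node factor RANKL, had 147.1 in its body, 20677 bp past the start, with 62.4 and 84.3.

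Cd27 and Tnfrsf1a, the first TNF receptor with its death domain, followed. The Cd27 summit of 106.7 (45.0 and 58.3) lay 107 bp from the start of Tapbpl, the nearer gene. Tnfrsf1a had 101.7 in its body, with 49.2 and 53.9, nearly equal in the replicates. Tnfrsf14, or HVEM, the receptor of LIGHT, had 87.3 (52.4 and 34.1), downstream of its end. Tnfrsf19, or TROY, had 86.0 in its body (28.0 and 59.5).

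Tnfrsf9, which codes for CD137, had 69.6 at 34 bp upstream of one of its starts (34.1 and 38.7), in a promoter with NF-kB and AP-1 letters. Fas, the death receptor of germinal centre B cells, had 6 summits between 16.3 and 50.2. The one 137 bp upstream had 45.6, but 9.67 in replicate 1 and 39.0 in replicate 2. Tnfrsf26 had 36.9 near the start of Cars and 24.0 at 129 bp upstream of its own, the latter matched in replicate 2 alone at 17.9 and shared with Tnfrsf22. Tnfrsf12a, the TWEAK receptor, had 32.7 near the start of Hcfc1r1, and Tnfrsf25, or DR3, had 24.0 within Espn. These last 4 receptors had no summit of 40 or more.

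In some pairs of ligand and receptor the strongest signals differed widely. Tnfrsf4 had 154.6 while its ligand Tnfsf4 had no optimal summit within 10 kb, and Tnfrsf11a had 147.1 while its ligand Tnfsf11 had none. With 50 kb either side both of these ligands had a summit. The other way round, Tnfsf15 had 157.7 and its receptor Tnfrsf25 24.0, and Tnfsf9 had 195.7 and its receptor Tnfrsf9 69.6. The Tnfrsf25 summit lay within Espn, whose start was the nearest, so it cannot be assigned to Tnfrsf25. Tnfsf8 and Tnfrsf8, and Tnfsf18 and Tnfrsf18, each had a summit of 100 or more at either partner. So did the loci of Cd70 and Cd27 and of Tnf and both of its receptors, but the Cd27 summit was nearest to the start of Tapbpl and that of Tnf to the start of Lta, so neither can be assigned. Binding near a gene does not show that the gene is used in these cells.

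The 8 genes without an optimal summit had peaks in the pooled relaxed list, which includes background and had a median signal of 9.89. Ltbr and Tnfrsf11b had none in the relaxed list of replicate 1. All 38 genes had a summit in the pooled list, as did 85.0% of all genes. Tnfsf11 (RANKL) reached 20.6, Tnfsf4 (the ligand of OX40) 18.7, Cd40lg, the T cell ligand of CD40, 14.8, and Tnfrsf21 (DR6) 14.6. Tnfrsf10b (a TRAIL receptor) reached 13.4, Tnfrsf11b (osteoprotegerin, the decoy of RANKL) 12.5, Ltbr (the lymphotoxin beta receptor) 11.3 and Tnfrsf23 (a decoy TRAIL receptor) 7.42. Binding there was not called reproducible, which at unknown depth does not show that it is absent.

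Many of the summits lay in groups of neighbouring genes, and chromosome 4 held 46 of them and chromosome 17 held 29. The span of Ltb, Tnf and Lta held 11 summits in 31.1 kb, or 35.4 per 100 kb. The span of Tnfsf9, Cd70 and Tnfsf14 held 22 in 109 kb (20.2 per 100 kb), and that of Tnfsf15 and Tnfsf8 held 30 in 157 kb (19.1 per 100 kb). A span also counts summits between the loci, which are not among the family's own. In loci of the family lay 16 of those 22 and 21 of those 30. Over whole chromosomes the density was 1.62 per 100 kb on chromosome 4 and 1.89 on chromosome 17. Lower densities were found at Tnfrsf1b and Tnfrsf8 (14 summits, 11.4 per 100 kb), Tnfsf4 and Tnfsf18 (6.16 per 100 kb), and Cd27, Ltbr and Tnfrsf1a (3 summits, 2.00 per 100 kb). The median over loci was 6.95 per 100 kb for the family and 2.34 for all genes. Per locus, 7 of 38 genes, all ligands, had 20 or more summits per 100 kb, against 1.98% of all genes. Ltb, Tnf and Lta, which share summits, are among these 7, so they are not independent. This count was not made within classes of locus length.

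**Figure D3:**
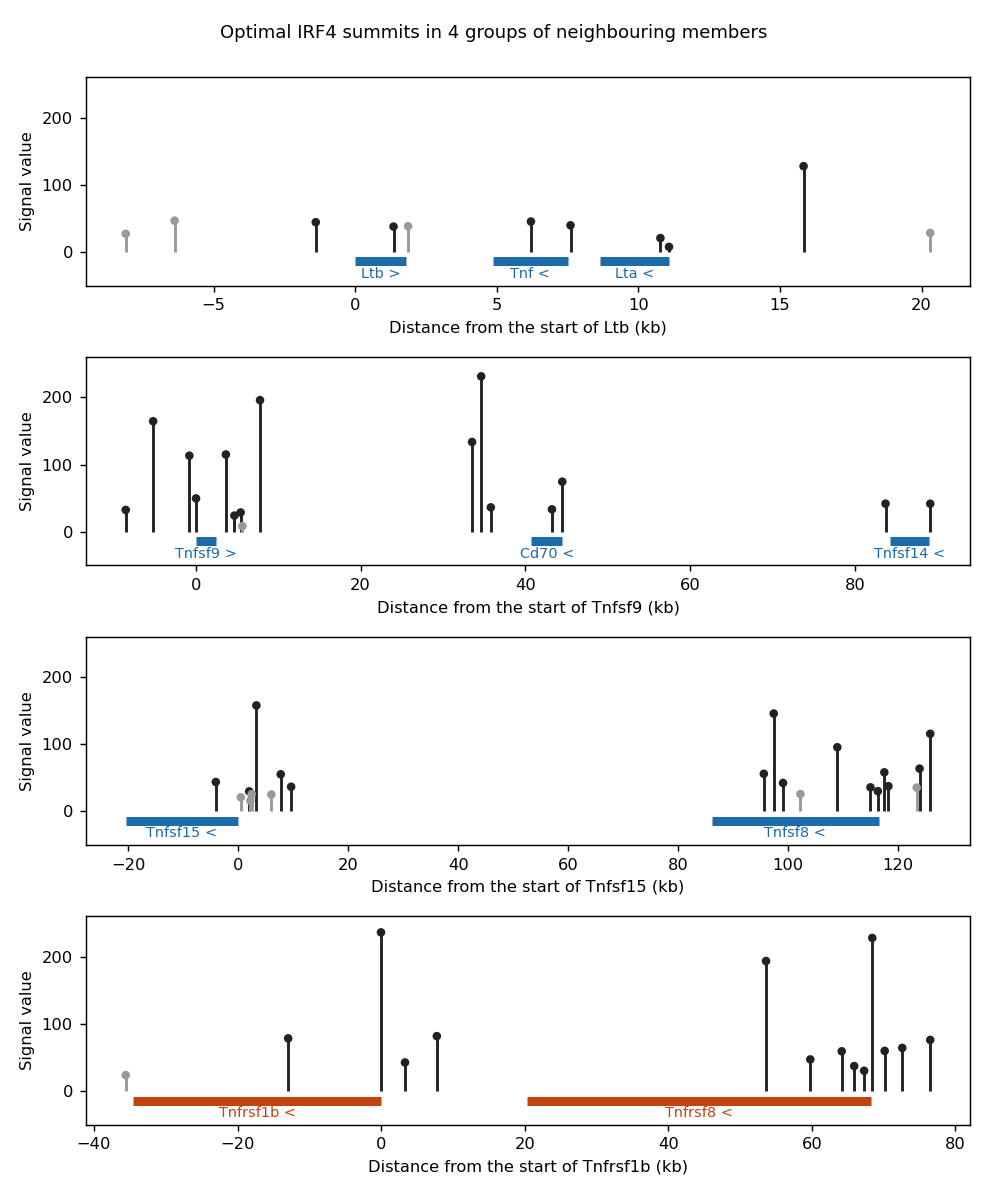
Lines show the signal value (vertical axis) of each optimal summit in the members' loci, by distance in kb from the start of the first gene named, for 4 groups of neighbours; bars are gene bodies, with arrowheads for their direction, blue for ligands and orange for receptors. Black summits are also in the conservative list and grey ones are not; the tallest lines are at the starts of Tnfrsf1b and Tnfrsf8 (236.1 and 227.8) but away from those of Cd70 and Tnfsf9.

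Most summits were away from starts: 16 of 107 (15.0%, 95% Wilson interval 9.42 to 22.9) lay within 1 kb of a start of these genes. Within 1 kb of any protein-coding start lay 24 (22.4%, interval 15.6 to 31.2), against 26.0% of the 32873 optimal summits in protein-coding loci. By gene, 14 of 38 had a summit within 1 kb of an own start, against 34.3% of genes. Inside gene bodies of the family lay 36 and outside them 71, and for 15 summits the nearest start was that of a gene outside the family. A summit nearer to an own start than to that of any other gene was found at 23 of 38, against 52.2% of the 20880 genes with a known start.

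The number of genes with a summit depended on the window. In the gene body alone 18 of 38 had one, against 41.9% of all genes, and with 5 kb either side 27 did, against 57.3%. With 50 kb it was 36, against 77.4%, and only Tnfrsf11b and Tnfrsf21 were without. The conservative list gave 27 (57.4%), losing Fasl, Tnfrsf22 and Tnfrsf25, and the peaks above the median signal of the optimal list gave 25 (44.9%). The strongest peaks of 1 replicate, as many as the optimal list holds, gave 29 from replicate 2 (63.7%) and 28 from replicate 1 (62.3%). The mm9 list gave 25 of 37 genes, against 46.9% of 22349.

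The replicates were compared at summits within 100 bp. Both held a match for 78 of the 107 summits (72.9%, 95% Wilson interval 63.8 to 80.4), against 85.4% of all optimal peaks. Replicate 1 alone matched 9, replicate 2 alone 18, and 2 were matched in neither. Summits not matched in both within 100 bp had a median signal of 25.2, against 53.9 for those matched in both. Their highest, 59.9, was above the median of all optimal peaks, 41.4. All 20 summits of 100 or more were matched in both. At matched summits replicate 2 was higher in 63 and lower in 15, with a median log2 ratio of 0.53 (SD 0.65), equal to the 0.53 of all optimal peaks. Of the 20 strong summits 19 were higher in replicate 2, and the exception was that downstream of Cd70.

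**Figure D4:**
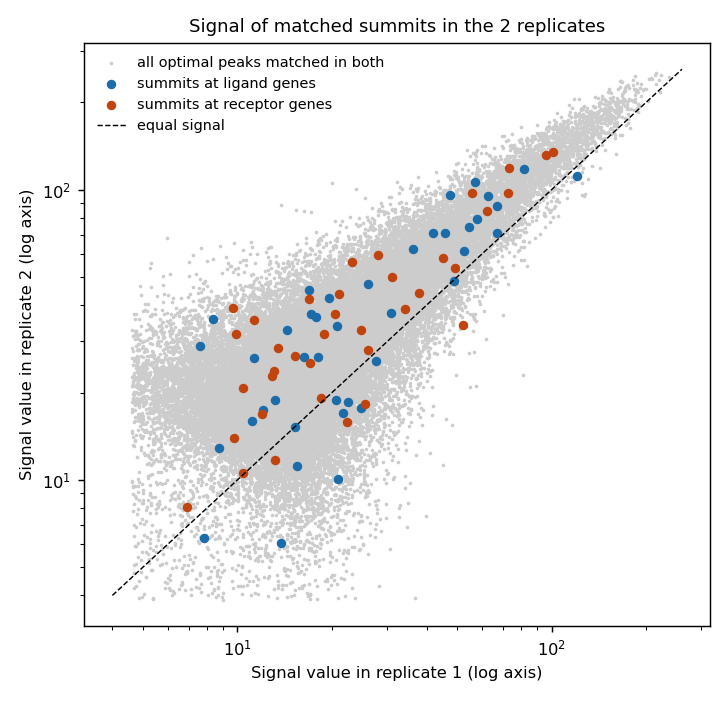
Each point is a matched summit by its signal value in replicate 1 and replicate 2, both on log axes: grey for all optimal peaks, blue for summits at ligands and orange for those at receptors; the dashed line marks equal signal. Most of the family's summits lie above the line (63 of 78), within the cloud of all peaks.

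Genes that act below the receptors were described from a list of 29 (TRAF adaptors, death-domain adaptors, the kinases and ubiquitin enzymes of the NF-kB route, and NF-kB itself). A summit was found at 28 of 29 (96.6%), against the 62.3% of all genes, and 12 had a signal of 100 or more, against 15.3%. The list was not compared within classes of locus length. The strongest were at the NF-kB subunit genes Nfkb1 (418.8) and Rel (294.6), the inhibitor Nfkbia (269.6), the adaptor Traf1 (227.4) and the kinase Chuk (205.8). The summit of Chuk lay 40014 bp from its start and outside its gene body. Birc2 and Birc3, both among the 12, had the same strongest summit. Rela alone had no summit. In this list 23 genes had a summit within 1 kb of a start, against 34.3% of all genes with a known start. Of 6 superfamily genes outside the rule, 2 had a summit.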

How the data were processed

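IRF4 ChIP-seq peaks of 2 replicates of CH12.LX were deposited as 6 lists. Per the deposited descriptions of the files, relaxed lists were made for each replicate and for both pooled, and the optimal and conservative lists were derived from them by IDR, a measure of reproducibility; these are on mm10 and 1 list is on mm9. The signal value is the authors' own, and its scale, the peak caller and the aligner are not stated in any label or description at hand. Depth is unknown. Summits (peak start plus offset) were assigned to RefSeq GRCm38 genes by location, so 1 summit may count for several genes. Replicate values are those of the nearest summit within 100 bp. A summit said to be matched in 1 replicate alone may have one further off in the other. Starts came from the RefSeq promoter table for 29 genes, and for 9 from the gene end with the strand of the mm9 gene. No mm10 genome was used here, so windows around summits were read on mm9, where 37 of 38 genes were found, and nothing was converted between builds. Chromosome 18 was left out of sequence work. Every gene of the family was named; replicate values were given for the strongest summits and for all within 1 kb of a start. The genes and lists were chosen with earlier results of these data known. Intervals are Wilson's at 95%. P-values were not computed. A count over a list of cell type markers is not reported here. Alternatives changed the list, window, matching distance and motif window. Counting was tested on simulated data. Python 3.11.15, numpy 2.4.6, scipy 1.17.1, pandas 2.3.3, pysam 0.24.0, samtools 1.23.1 and matplotlib 3.10.9 were used.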

Additional observations from a re-analysis of the deposited data

How the results depend on the processing

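The number of genes with a summit fell from 30 to 18 when the gene body alone was counted and the 12 lost include Cd27, Tnfrsf4, Tnfrsf18 and Tnfrsf14. It kept within 1.5 times 30 in the conservative list, above the median signal, with 5 or 50 kb either side and in the mm9 list, whose 25 genes all had an optimal summit. Leaving out a replicate, with the other cut to the length of the optimal list, gave 28 to 29. Fasl was lost each time, its strongest summit in replicate 1 ranking 44958 there, past that length. The median of the strongest signal, 94.5, was 72.1 for the gene body alone, 86.0 with 5 kb, 137 with 50 kb and 107 in the conservative list, beside 52.1, 55.3, 81.8 and 62.2 for all genes. The share of summits near a start, 15.0% at 1 kb, was 29.9% at 2500 bp. Composite elements were found in 5 summits, not 9, with 25 bp either side (7.14%, against 10.4% of all peaks, where 50 bp gave 16.0%). The share with an NF-kB site was 5.71% at 25 bp (interval 2.24 to 13.8, which covers the 2.72% of all peaks) and 14 of 70 summits had one at 100 bp (interval 12.3% to 30.8%, against 9.24%). After seeing the data, peaks that overlap a stronger one were left out, which kept 30 genes and gave 15.3% near a start, and so were summits nearest to a start outside the family, which left 24 genes; by the stricter count of summits nearest to the gene's own start, which all genes can be given, it was 23 of 38 against 52.2%. No paired analysis was possible because there is 1 group. Depth, which is unknown, limits what can be said of weak or missing summits.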
